A study of Mus musculus with 2 samples.

Results

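The 8 microRNA (miRNA) genes described here are Mir744, Mir139, Mir328, Mir151, Mir652, Mir330, Mir191 and Mir425, out of 2202 miRNA genes counted. They were listed as highly counted miRNAs lying in introns of protein-coding host genes and belonging to no large seed family. They were chosen by their high counts in these same libraries, so their levels are given as a description and no test is attached to them. The libraries came from tissue labelled layer of hippocampus, called hippocampus below, without saying which layer. The mice were adult females of the strain labelled 5xFAD/CAST, aged 8 to 10 months. The libraries hold RNA shorter than 30 nt. There is 1 group of 2 biological replicates, both under 1 donor entry, and nothing else to set it against. Lines named 5xFAD carry transgenes with human familial Alzheimer's disease mutations and develop amyloid plaques, and CAST usually stands for an inbred line of Mus musculus castaneus origin. Both libraries share the transgenic label and strain, so no value below can be read as an effect of either. The labels do not say whether a replicate was 1 animal or a pool.

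An intronic miRNA is transcribed as part of a longer RNA. The enzyme Drosha with its partner Dgcr8 cuts a hairpin out of that RNA, and Dicer then trims the hairpin to a short duplex, from which an Argonaute protein keeps 1 arm as the mature miRNA. The seed, bases 2 to 8 from the 5′ end of the mature RNA, pairs with target messenger RNAs and lowers their stability or translation. An intronic miRNA may follow its host gene or be transcribed from a promoter of its own, and the host messenger RNAs were not measured in these libraries.

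Mature sequences are shown because the seed sets which targets each miRNA can pair with and whether it belongs to a larger family. They come from RefSeq on GRCm38.p6, the assembly also called mm10, and were matched by symbol for 6 of the 8 genes; Mir328 and Mir151 are named only. Capitals mark the seed, and both arms are printed because the counts add the arms of a hairpin together:
mmu-miR-744-5p: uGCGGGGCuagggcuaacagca
mmu-miR-744-3p: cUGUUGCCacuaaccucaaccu
mmu-miR-139-5p: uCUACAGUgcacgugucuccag
mmu-miR-139-3p: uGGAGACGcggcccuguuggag
mmu-miR-652-5p: cAACCCUAggagggggugccauuc
mmu-miR-652-3p: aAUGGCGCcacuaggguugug
mmu-miR-330-5p: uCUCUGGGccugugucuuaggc
mmu-miR-330-3p: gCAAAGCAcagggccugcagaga
mmu-miR-191-5p: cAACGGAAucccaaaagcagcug
mmu-miR-191-3p: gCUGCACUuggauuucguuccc
mmu-miR-425-5p: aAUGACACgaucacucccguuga
mmu-miR-425-3p: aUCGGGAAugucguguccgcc

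These 12 mature RNAs held 12 different seeds, so none of the 6 genes shared a seed with another of them. For 9 of the 12, no other gene in the RefSeq table held the seed, and 68.0% of all 1738 mature mouse miRNAs in the table were likewise alone with theirs. The other 3 shared the seed with 1 gene each. The seed of miR-330-5p was also that of miR-326-3p, whose gene Mir326 was at 523 ± 140 CPM (CPM, counts scaled to a common total of counts assigned to miRNA genes; SD, n = 2). Mir6240, which shares the seed of miR-330-3p, had 20 and 23 counts in replicates 1 and 2, and Mir489, which shares that of miR-425-5p, had 0 counts in both. For comparison, the largest seed group in the table spanned 13 genes. Each of the 12 sequences occurred in a single RefSeq hairpin, which bears on these counts because reads with several genomic matches were set aside in the tables. The 12 sequences had a median GC content of 58.1%, against 52.2% over all mature miRNAs in the table.

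The hairpins of the 2 most counted genes are shown to place the arms, in capitals, around the loop. They are on mm10 at chr11:65734733-65734832 on the minus strand for Mir744 and chr7:101475376-101475443 on the plus strand for Mir139, at the positions that the M21 gene annotation gives:
Mir744 hairpin: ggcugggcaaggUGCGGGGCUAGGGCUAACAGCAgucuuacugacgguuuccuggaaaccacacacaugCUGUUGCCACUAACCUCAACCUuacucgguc
Mir139 hairpin: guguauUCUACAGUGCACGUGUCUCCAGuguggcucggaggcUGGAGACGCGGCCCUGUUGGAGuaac

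The libraries held 9962659 reads in replicate 1 and 12761689 in replicate 2. Sense counts over miRNA genes came to 3135960 and 4377622, and the levels below are scaled to those totals. Multimapping reads made up 36.3% and 41.7% of the reads and stand outside the gene counts. The labelled tissue was checked against markers. The 12 brain and neuron genes, led by Mir132, had summed levels of 36033 and 34370.3 CPM in replicates 1 and 2, and 8 of the 12 had at least 10 counts in each library. The other 4, Mir124a-1, Mir124a-2, Mir124a-3 and Mir9-2, averaged 0.228 to 2.05 CPM. The liver marker Mir122 was at 28.4 and 38.4 CPM, and of the 5 striated muscle genes Mir206 alone had counts, at 26.5 and 22.6 CPM. Mir124a, Mir9 and the muscle genes at 0, Mir1a and Mir133a, have several genomic copies, and multimapping reads were not counted, so low counts of these genes were not read as absence. The near-equal sums of the brain and neuron genes hide differences in opposite directions. Mir132 was at 21687 and 13106 CPM in replicates 1 and 2, Mir128-1 at 4545 and 9069 CPM, and Mir137 at 4757 and 6655 CPM. In other lists the sums also stood apart. The 8 genes listed for epithelium, led by Mir183 and Mir200c, summed to 801 and 201 CPM. The 6 genes of ciliated cells and choroid plexus summed to 2993 and 1095 CPM, and the endothelial Mir126a was at 12521 and 22475 CPM. The part of these differences in the values of the 8 genes was not tested. In bulk tissue, fewer cells of a type and less RNA per cell cannot be told apart. A miRNA read covers the mature RNA whole, so counts were not divided by length, and how evenly different mature sequences are captured in a library was not measured.

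The annotation bore out the intronic description for only some of the 8 genes. Mir744, Mir139, Mir151 and Mir652 lay wholly in an intron of a protein-coding gene on their own strand, with no exon of that gene over them in any transcript. Mir330 lay in an intron of the main Eml2 transcript and partly in an exon of a minor one. Mir328 lay on the strand opposite to its nominal host Elmo3. Mir191 and Mir425 lay in a long non-coding RNA gene and outside any protein-coding gene. Of the hosts on the same strand, Map2k4 and Ptk2 encode protein kinases, and Pde2a encodes an enzyme abundant in forebrain neurons. The 8 genes thus do not share a class of host.

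**Figure D1:**
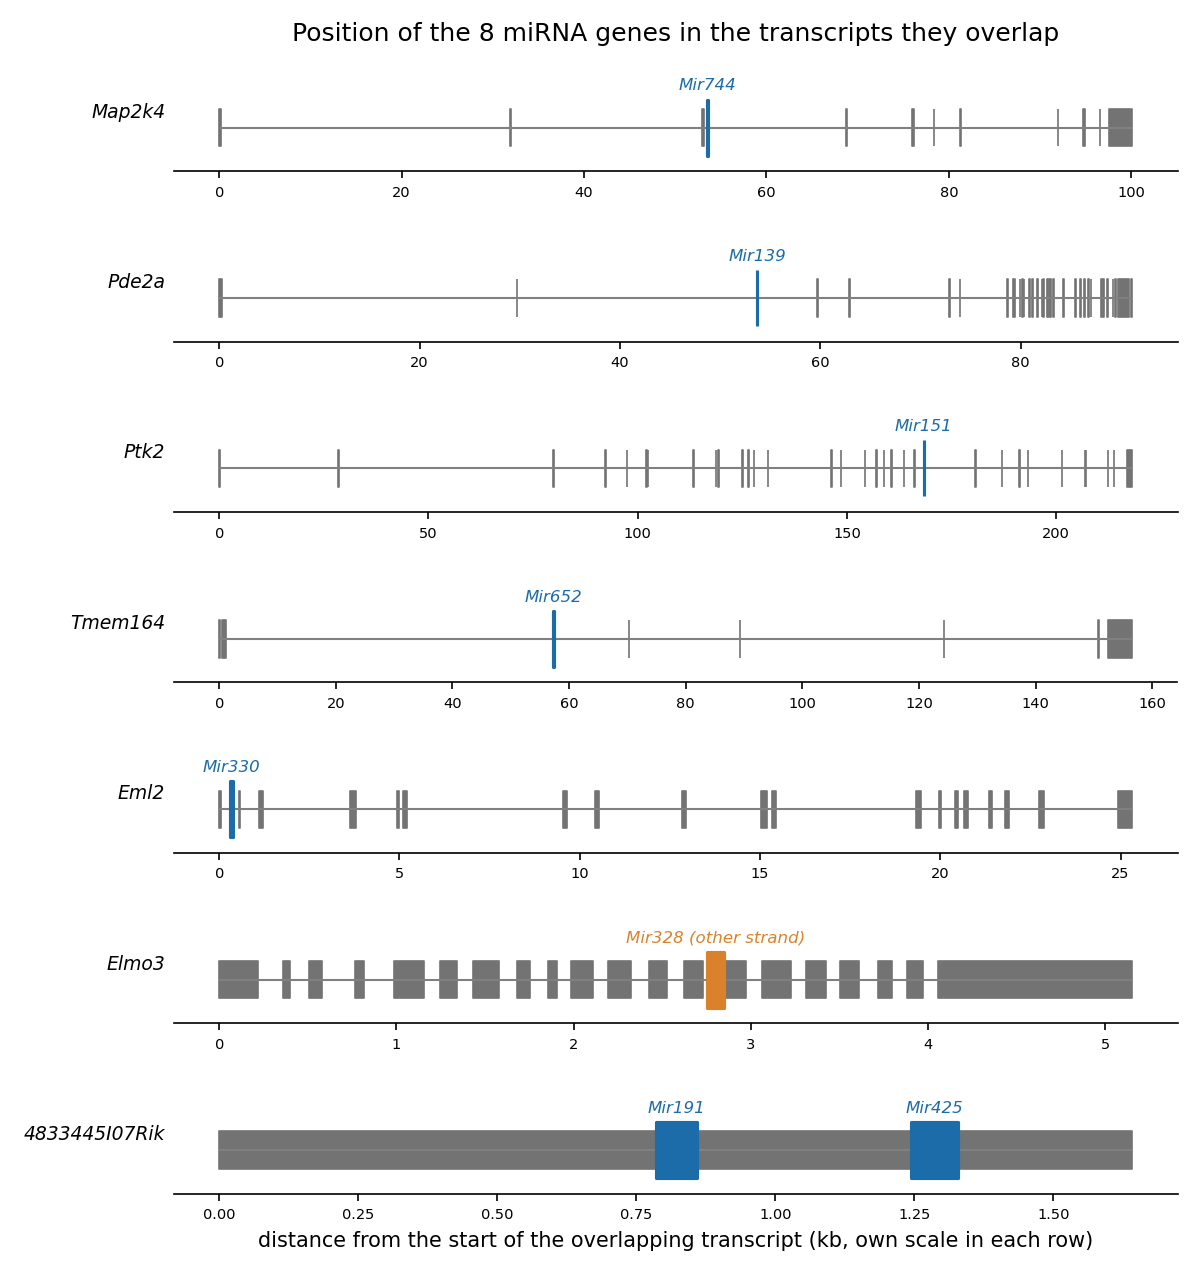
Position of the 8 miRNA genes (coloured bars) in the transcript each overlaps, with exons in grey and the distance from the transcript's start in kb on the x axis, scaled separately in each row. Mir328, in orange, is on the other strand from Elmo3, and Mir191 and Mir425 both fall in the exon of the 1-exon transcript of 4833445I07Rik.

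The kinase hosts carried Mir744 and Mir151. Mir744 (ENSMUSG00000076460.1) lies in intron 3 of 10 of Map2k4, which encodes a kinase that activates the stress kinases JNK and p38. It starts 359 nt after the exon upstream of it in an intron of 15588 nt. Mir151 (ENSMUSG00000065612.1) is on chromosome 15 from 73254815 to 73254882, minus strand, in intron 22 of 31 of Ptk2, the gene of focal adhesion kinase, which relays signals from integrins. An antisense transcript, 1700085D07Rik, runs over Mir151 on the other strand.

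Mir139 (ENSMUSG00000065446.1) lies in intron 2 of 31 of Pde2a, which encodes a phosphodiesterase that breaks down cAMP and cGMP. A second protein-coding model, Gm45837, spans the same place, where Mir139 falls in intron 3 of 31. Mir652 (ENSMUSG00000076011.1) is on chromosome X from 142739000 to 142739097, plus strand, in intron 2 of 6 of Tmem164, a gene for a membrane protein. That intron, at 69090 nt, was the longest of those holding one of the 8 genes. Mir330 (ENSMUSG00000065543.1), on chromosome 7 from 19181465 to 19181562, plus strand, lay in intron 1 of 18 of Eml2, which encodes a microtubule-associated protein. Its intron was 485 nt long, and 84 of the 98 nt of Mir330 overlapped exon 1 of a processed transcript of Eml2 that codes for no protein.

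Mir328 (ENSMUSG00000070130.1) is on chromosome 8 from 105308364 to 105308460, minus strand, while Elmo3, which encodes a regulator of cell engulfment and motility, is on the plus strand. Seen on that other strand, 12 of its 97 nt overlapped coding sequence in exon 14 of 20 of Elmo3 and the rest fell in the intron before it. The position is thus antisense to the gene and not inside its transcript.

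Mir191 (ENSMUSG00000105497.1) and Mir425 (ENSMUSG00000065579.1) are on chromosome 9, plus strand, from 108568319 to 108568392 and from 108568777 to 108568861, with 384 nt between them. Both lie in the single exon of the transcript 4833445I07Rik-201, a long intergenic non-coding RNA. In a second transcript, 4833445I07Rik-202, Mir191 falls in an intron of 303 nt. The protein-coding gene Dalrd3, on the same strand, starts 1493 nt downstream of Mir191 and 1024 nt downstream of Mir425. A further annotated miRNA gene, Gm24083, overlaps Mir191 on the opposite strand.

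The 8 genes together held 21.4% of the counts in replicate 1 (exact 95% binomial interval 21.3% to 21.4%) and 21.3% in replicate 2 (21.3% to 21.3%), or 21.3% ± 0.0605 (SD, n = 2). Mir744 and Mir139 supplied most of that. They held 74.1% and 71.1% of the counts of the 8 genes, while the other 6 held 5.54% of all counts in replicate 1 and 6.15% in replicate 2. Intervals and limits cover counting error alone: PCR copies of a molecule are counted as separate reads. As a scale for these shares, the let-7 family with Mir98, 12 genes, held 37.0% ± 2.15. Multimapping reads are left out of all these shares. By name each of the 8 genes has 1 copy, while some let-7 genes, such as Mirlet7a-1 and Mirlet7a-2, are copies. Reads that match several let-7 copies are therefore missing from the let-7 share.

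Mir744 was the most counted of the 8. Its mature RNA has been reported to repress the growth factor gene TGFB1 in human cells. It had 281106 counts in replicate 1 and 359553 in replicate 2, which are 89639.5 CPM (exact 95% interval 89324 to 89956) and 82134 CPM (81877 to 82392), with a mean of 85887 ± 5307 CPM (SD, n = 2). It held rank 3 in both libraries, below Mirlet7b in each and above Mir139 in each. Mir139, whose product is known as a repressor of the insulin-like growth factor receptor IGF1R in human tumour cells, had 215782 and 303573 counts. Those are 68809 CPM in replicate 1 and 69347 CPM in replicate 2, a mean of 69078 ± 380 CPM, and rank 4 in both. No library value of Mir139 overlapped those of its neighbours in the order, Mir744 and Mirlet7i.

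**Figure D2:**
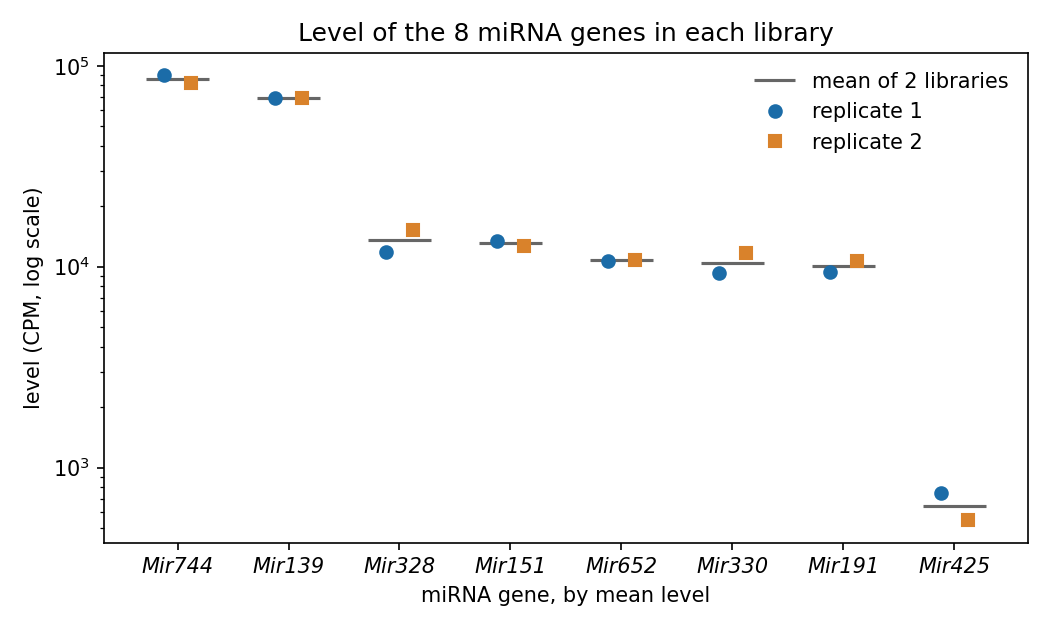
Level of each of the 8 miRNA genes in CPM, on a log axis, with replicate 1 as circles, replicate 2 as squares and the mean of the 2 libraries as a line. Mir744 and Mir139 stand above 5 genes between 9282 and 15247 CPM, and Mir425 lies below at 746 and 546 CPM.

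A middle group of 5 genes lay between 9282 and 15247 CPM in single libraries. Mir328, whose product represses the beta-secretase gene Bace1 in mouse, was at 11803 CPM in replicate 1 and 15247 CPM in replicate 2 (13525 ± 2435 CPM, SD, n = 2). Mir151, whose human counterpart promotes cell migration together with its host kinase, was at 13455 and 12645 CPM (13049.9 ± 573 CPM). Their order reversed between the libraries, with Mir328 lower in replicate 1 and higher in replicate 2. Mir652, studied for its part in the stressed mouse heart, was at 10714 and 10757 CPM (10736 ± 30.5 CPM). Its libraries lay closest together of the 8 genes in CPM, with a coefficient of variation of 0.284%.

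Mir330 was at 9282 CPM in replicate 1 and 11665 CPM in replicate 2 (10473 ± 1685 CPM, SD, n = 2). Mir191, expressed widely across tissues and often used as a reference for normalising miRNA levels, was at 9424 and 10676 CPM (10049.9 ± 886 CPM). In the order of means, Mir652, Mir330 and Mir191 were 262 and 423 CPM apart, less than the SD of Mir330, and the library values of Mir330 overlapped those of both others. Mir652 exceeded Mir191 in both libraries, with no overlap. Mir151 exceeded Mir652 in both libraries, with no overlap. Outside the list, Mir23b, Mir125a, Mir433, Mir26b and Mir23a were the neighbours of these 5 genes in rank, between 9227 and 16739 CPM on average, and each overlapped in library values with the gene next to it. Of the 8 genes, 6 were among the 20 most counted of all genes. All ranks and places given are by counted reads, without multimapping reads. Genes with several copies, such as Mir124a-1 at 1.23 CPM, can thus stand too low, and the ranks are not an order of abundance. Mir191 was at rank 21, with a difference from Mir26b, at rank 20, of -5.62 CPM, and it entered the 20 once the libraries were scaled by TMM or DESeq2 factors.

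Mir425 was far lower than the rest. In human, its product represses the natriuretic peptide gene NPPA. It had 2340 counts in replicate 1 and 2391 in replicate 2, or 746 CPM (exact 95% interval 716 to 777) and 546 CPM (525 to 569), with a mean of 646 ± 141 CPM (SD, n = 2). That put it at rank 117, between Mir3099 at 653 CPM and Mir431 at 639 CPM, both of which overlapped it in library values. The rule states no minimum level, so the list is not the top of an ordering: 116 genes were above Mir425, of which 39 lay in introns of protein-coding hosts and 35 of those are not on the list.

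Mir191 and Mir425 lie in 1 non-coding transcript yet were counted unequally. Mir191 had 12.6 times the counts of Mir425 in replicate 1 (exact 95% interval 12.1 to 13.2) and 19.5 times in replicate 2 (18.8 to 20.4), a mean ratio of 16.1 ± 4.89 (SD, n = 2). The intervals of the libraries do not overlap. They count PCR copies as separate reads and can be too narrow, so a difference beyond counting error is not established. As background, chosen after these values were seen, 61 neighbouring pairs of miRNA genes on 1 strand lay within 1000 bp of each other with at least 10 counts of both genes in each library. By mean CPM the higher gene had 15.6 times the level of the lower for Mir191 and Mir425. The median over these pairs, which include them, was 6.48, and 22 pairs were more unequal. Some of those 22 hold a gene with copies elsewhere, such as Mir29b-1 or Mir24-1, whose multimapping reads were not counted. How far this widened the background was not tested. The ratio moved between the libraries by 1.55-fold for Mir191 and Mir425, against a median of 1.45-fold over the pairs.

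Among the 741 miRNA genes in introns of protein-coding hosts on their own strand, listed genes, chosen for high counts, were near the top. All 741 together held 45.1% of all counts in replicate 1 and 47.1% in replicate 2. The 4 listed genes that meet this definition, Mir744, Mir139, Mir151 and Mir652, held 40.5% and 37.1% of the counts of the 741 genes (38.8% ± 2.36, SD, n = 2). They were in places 2, 3, 7 and 8 of that order. The other genes in the first 9 places were Mirlet7g, Mirlet7e, Mir126a, Mir23b and Mir26b, of which Mirlet7g was at 120353 ± 4166 CPM and Mir26b at 10055 ± 1965 CPM.

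**Figure D3:**
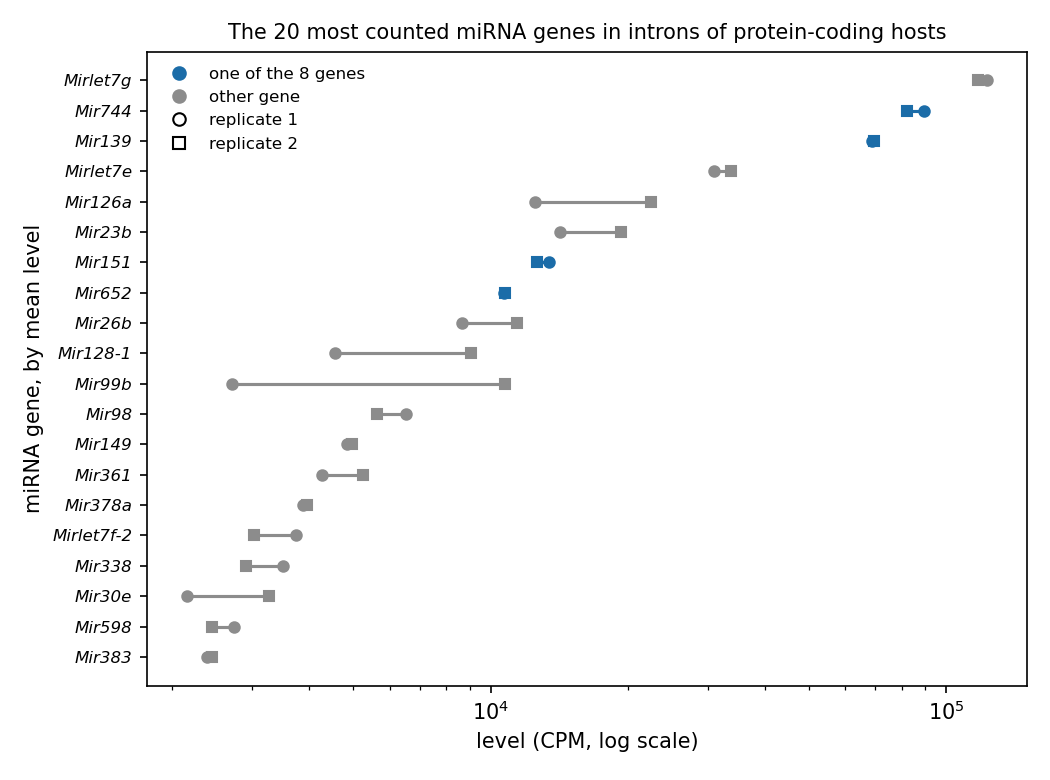
Level in CPM, on a log axis, of the 20 most counted miRNA genes in introns of protein-coding hosts, with replicate 1 as circles and replicate 2 as squares joined by a line. Mir744, Mir139, Mir151 and Mir652, in blue, have short lines, as do several genes in grey, among them Mir149 at 4842 and 4966 CPM. Mir99b, at 2703 and 10743 CPM, has the longest.

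The spread between the libraries was not used to choose the list. With TMM scaling, which corrects for a few abundant genes taking up much of the total, the ratio of replicate 1 to replicate 2 was above 1 for 5 of the 8 genes and below 1 for 3. In plain CPM it was above 1 for 3 and below 1 for 5, as Mir139 and Mir652 turned to 0.992 (exact 95% interval 0.987 to 0.998) and 0.996 (0.982 to 1.01), so these 2 genes have no direction independent of the scaling. After TMM scaling it was 1.15 for Mir744 (exact 95% interval 1.14 to 1.15), 1.04 for Mir139 (1.04 to 1.05), 1.12 for Mir151 (1.10 to 1.13) and 1.05 for Mir652 (1.03 to 1.06). Mir328 had a ratio of 0.813 (0.802 to 0.823), Mir330 of 0.835 (0.823 to 0.847) and Mir191 of 0.927 (0.913 to 0.940). The ratio was farthest from 1 for Mir425, at 1.43 (1.35 to 1.52). These intervals take the TMM factors as fixed. The intervals of Mir744, Mir328, Mir151, Mir330, Mir191 and Mir425 left out 1 on the same side with TMM factors, in plain CPM and with DESeq2 size factors.

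None of the 8 genes was 1.5-fold or more apart between the libraries, although the interval of Mir425 reached past that fold. Of the 384 genes with at least 10 counts in each library, 107 were that far apart, or 27.9%. Of the 50 most counted genes, 12 were. The median distance was 1.13-fold for the 8 genes, 1.24-fold for the 50 most counted genes, which include 7 of the 8, and 1.29-fold for the 384. Among other intronic genes of high level, Mir126a was at 12521 CPM in replicate 1 and 22475 CPM in replicate 2, and Mir149 was at 4842 and 4966 CPM. Over the 459 genes with at least 10 counts in either library, the biological coefficient of variation was 0.385.

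**Figure D4:**
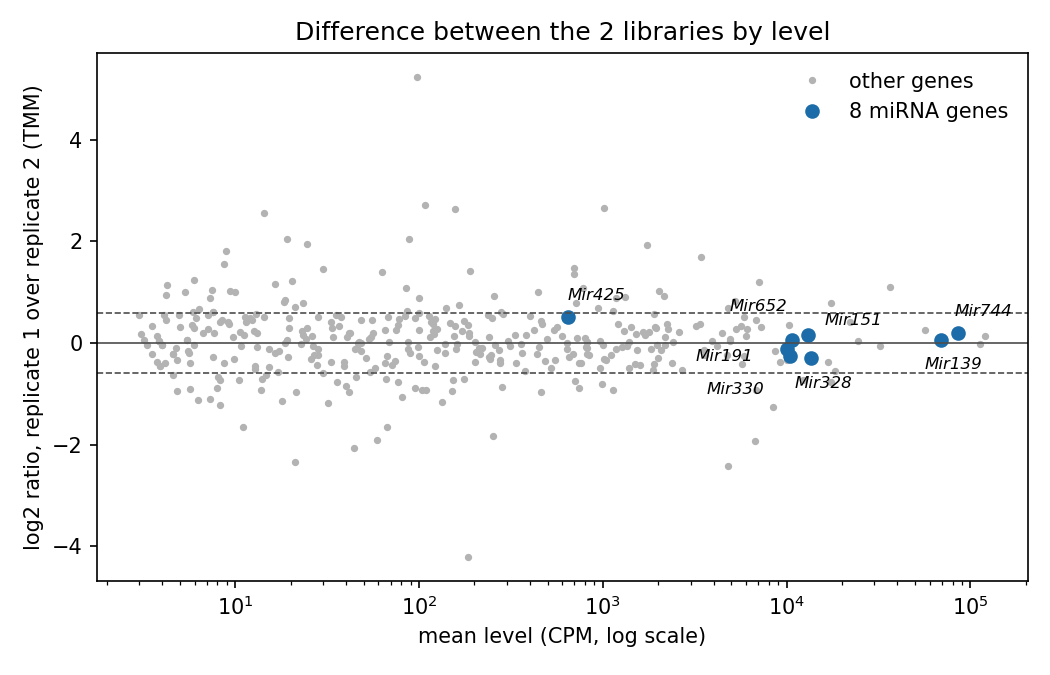
Log2 ratio of replicate 1 over replicate 2 after TMM scaling against the mean level in CPM, on a log axis, for 384 miRNA genes. Dashed lines mark 1.5-fold, and the 8 genes, in blue, all lie between them, from -0.30 for Mir328 to 0.52 for Mir425.

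The rule picked genes by their sense-strand counts, and the strand column with the larger total was taken as sense. Opposite-strand counts are therefore given as a description only. On the strand opposite to the gene, all 8 genes had 0 counts in both libraries, as had 354 of the 384 genes with at least 10 sense counts in each library, or 92.2%. For Mir425, the least counted, that allows an opposite-strand share of up to 0.128% in replicate 1 and 0.125% in replicate 2 (3 counts of its total), and for Mir744 of up to 0.00107% and 0.000834%. Without regard to strand, 7 of the 8 genes kept exactly the same counts. These 7 had 0 counts on the opposite strand and no miRNA gene annotated over them there. The transcripts that face Mir151 and Mir328 are not miRNA genes and were not counted, so this does not bear on them. Mir191, which Gm24083 overlaps, had 0 counts without regard to strand in both libraries. Its 29552 and 46736 reads stood, in the opposite-strand column, under Gm24083, which had 0 counts on its own strand. Reads called ambiguous without regard to strand numbered 221479 and 383239, exactly the opposite-strand counts at the 64 genes whose positions are annotated on both strands. Reads of Mir191 were 13.3% and 12.2% of all sense counts at those 64 genes.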

How the data were processed

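Small RNA was sequenced from 2 hippocampus libraries of 1 group. The authors deposited, per library, raw counts for each miRNA gene with 4 summary lines, without normalization; build mm10 and annotation M21 are named in their notes. The aligner, counter and trimmer were not given in the sources used here. Of the 3 columns of counts, the strand column with the larger total was taken as sense. The summary lines stayed out of library sizes: unmapped reads were 26.5% and 18.1% of the total, and reads outside miRNA genes 5.72% and 5.91%. Multimapping reads have a line of their own, and counts add both arms of a hairpin. Variants of the strain against mm10 were not assessed.

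All 2202 identifiers matched GENCODE M21. A gene counted as intronic where it lay wholly inside a protein-coding gene on its strand and touched no exon of it; intron numbers follow the principal transcript (APPRIS), or, for 4833445I07Rik, the named transcript. Ratios used TMM factors of 0.976 and 1.02 (edgeR 4.0.16, R 4.3.3), from genes with at least 10 counts in either library. The coefficient of variation comes from the common dispersion of edgeR. Intervals are exact Clopper-Pearson, and a count of 0 was taken to allow up to 3. The ratio step was tested on simulated counts with a smaller coefficient of variation than that of these data. DESeq2 1.42.0 (size factors), pandas 2.3.3, scipy 1.17.1, numpy 2.4.6 and matplotlib 3.10.9 in Python 3.11.15 were used. The 8 genes and the marker lists were chosen with earlier results of these data known. Genes beside the 8 were named by rule: neighbours in rank or position, genes sharing a seed, markers, the 20 most counted intronic genes, and let-7 as a scale; Mir149 was picked after its values were seen. Alternatives covered scaling, denominator, strand column, count minimum, fold, definition of intronic and each replicate left out.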

Additional observations from a re-analysis of the deposited data

How the results depend on the processing

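Over all reads of the library in place of assigned counts, the share of the 8 genes was 7.02%, and counted without regard to strand, where Mir191 had 0, it was 22.1%. The share of the listed genes among those in introns of protein-coding hosts was 44.6% without regard to strand and 34.4% with introns of any gene type. Without regard to strand the ratio of Mir191 to Mir425 was 0. The number of genes on the list among the 20 most counted was 6 or 7 in every alternative tried, and 0 were 1.5-fold apart under each scaling tried. With that 1 group, leaving out a replicate gives no ratio between libraries, so that alternative was not run for the spread; elsewhere it moved no share or level by more than 1 SD, which it cannot with 2 values. The share of all genes that far apart was 22.2% with at least 100 counts in each library and 40.1% with 1, and 12.5% of the genes with at least 10 were 2-fold apart. With DESeq2 size factors, 2 of 8 levels (Mir139 and Mir652, whose SDs were small) moved by more than 1 SD, and with TMM factors 0. Levels are limited by 2 libraries and not by depth, as the lowest count was 2340.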
